A study of Mus musculus with 18 samples.

Results

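Intracisternal A particle (IAP) elements, a family of endogenous retroviruses of the mouse genome, were followed in the hippocampus of older 3TC-treated, older and younger mice. They were taken as every entry of the repeat count table that was of class LTR and had a name starting with IAP. This gave 25 entries, 10 internal parts (the region between the 2 LTRs, where the retroviral genes lie) and 15 LTRs (the long terminal repeats, which hold the promoter), out of 1146 repeat entries and 16790 genes and repeat entries in all. All 25 belonged to the ERVK family, which had 285 entries, and 10 had a Y in the name (IAPEY or IAPEy). An entry pools the reads of all genomic copies of a subfamily, and since reads that map to several places are shared out between copies and subfamilies, related entries are not independent measurements. Counts of an entry also depend on its length and copy number, so that levels are compared between mice and not between entries.

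IAPs are flanked by LTRs and are transcribed by RNA polymerase II from the 5′ LTR, and the RNA is both the template for translation of the gag, pro and pol proteins and the substrate of the element's own reverse transcriptase. They are among the youngest and most mutagenic retroelements of the mouse, and in somatic tissue most copies are kept silent by DNA methylation and by histone H3 lysine 9 methylation, which KRAB zinc finger proteins direct to them through TRIM28 and SETDB1. IAPE is a form that carries an envelope gene, and copies of it have been amplified on the mouse Y chromosome together with MuRVY elements. 3TC (lamivudine) is a nucleoside analog that blocks reverse transcriptase, an enzyme that acts after the RNA of an element has been made.

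The older 3TC-treated mice were killed at 20 months after drinking water with 2 mg/mL 3TC for 6 weeks, the older mice were 20 months old and drank plain water, and the younger mice were 9 months old and drank plain water. All were C57/B6 mice, with 6 per group, 3 of each sex, and the whole left hippocampus of each mouse was 1 library. Mice are named by their label codes, such as the older male CMO1. In this bulk tissue, fewer cells that express an element and less RNA per cell cannot be told apart. Whether all counts of an entry came from transcripts of its own elements was not tested.

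The libraries held 34.6 to 49.1 M counts, of which repeat entries took 63.4% to 85.7%. Counts of the Y-linked gene DDX3Y were 457 to 1176 per male (9 mice) and 0 in all 9 females, as labelled. The 9 hippocampal neuron markers examined were all in the table, with summed levels of 87.4 to 299 CPM (the counts-per-million scale over all counts, with TMM factors). The older 3TC-treated female DFO4 stood apart, with that lowest sum and with 404 CPM of thalamus markers, against 65.6 to 150.1 CPM in the other mice. Choroid plexus markers summed to 29.2 to 648 CPM over the 18 mice, with low and high mice in all 3 groups.

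IAP counts were a small part of the repeat counts, with overlapping shares in the 3 groups. The 25 entries together made up 1.33% to 1.59% of the repeat counts of older 3TC-treated mice, 1.44% to 1.65% of those of older mice and 1.47% to 1.62% of those of younger mice, and 13.6% to 15.4% of all ERVK counts. IAPEz-int, the internal part of the main active IAP lineage, held 52.7% of IAP counts on average, with 181919 to 305736 counts per mouse. It was followed by IAPEY3-int with 6.49%, and by IAPLTR2_Mm with 4.25% and IAPLTR2a2_Mm with 4.04%, both LTRs. The least abundant entry, IAPEY4_LTR, still had 647 to 1243 counts per mouse, so counting error was small for every entry, and all 25 passed the filter of a mean count above 10.

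The level of IAPEz-int differed more between mice than between groups. In CPM it had a low of 3881, a median of 6036 and a high of 8963 in older 3TC-treated mice. The older mice had a low of 4324, a median of 6177 and a high of 8842 CPM, and the younger mice a low of 3904, a median of 6103 and a high of 8241 CPM. The 3 ranges overlapped almost completely. Against repeat counts in place of all counts, the same element was nearly flat. In repeat CPM, the counts-per-million scale taken over repeat counts only and without TMM factors, it had 7291 to 8263 (median 7935) in older 3TC-treated mice, 7636 to 8433 (median 7771) in older mice and 7834 to 8504 (median 8142) in younger mice.

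**Figure D1:**
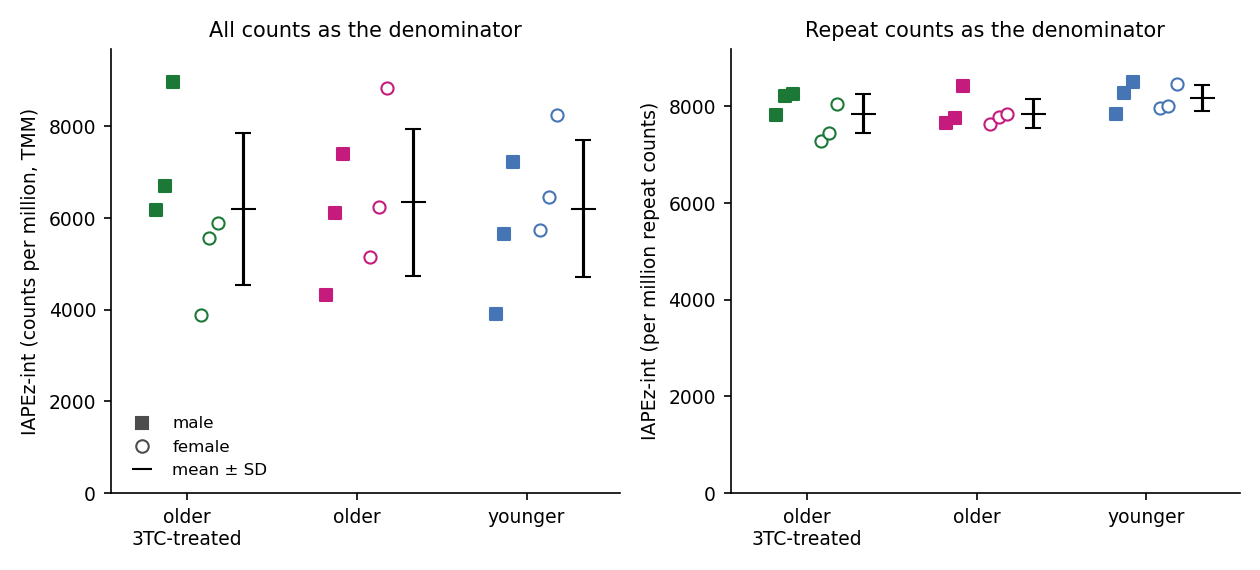
IAPEz-int in each mouse by group, in CPM (left) and in repeat CPM (right), with squares for males, circles for females and black bars for the mean ± SD of 6 mice. The left panel spans 3881 to 8963 CPM with full overlap of the groups, and the right panel spans 7291 to 8504.

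The same contrast between the scales held across the family. The coefficient of variation over the 18 mice had a median of 27.1% over the 25 entries in CPM (22.0% to 67.7%) and of 7.70% in repeat CPM (4.29% to 57.0%), with 18 entries under 10% on the second scale. The highest mouse had a median of 2.76 times the lowest in CPM and 1.39 times in repeat CPM. As a description over the 18 mice, which share library and depth effects, 19 of the other 24 entries had a Pearson r above 0.9 with IAPEz-int in log2 CPM, with a median of 0.98. The 5 entries below that were IAPLTR3 (0.521), IAPEY5_I-int, IAPA_MM-int, IAPEy-int and IAPLTR3-int, and the results below turn on them.

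The level of IAPEz-int in CPM varied over the mice together with that of genes not known to be used in hippocampus. Over the 18 mice, its log2 CPM and the mean log2 CPM of 25 genes whose use is limited to tissues outside the brain, such as caseins, defensins and protamines, had a Pearson r of 0.981 and a Spearman rho of 0.924 (permutation p = 1e-05 for each, the smallest that 1e+05 permutations can give, adjusted p = 1e-05 over 2 relations). Without CFO2 and YM1, the mice farthest from the median of that list, r was 0.976. It was 0.992 within older 3TC-treated, 0.979 within older and 0.982 within younger mice. With the percentage of counts in repeat entries other than IAP, r was 0.984 and rho 0.981 (permutation p = 1e-05 for each, adjusted p = 1e-05), and without DFO5 and YM1 r was 0.983. These p-values compare with shuffled mice and do not test a relation particular to IAP. IAPEz-int is itself a repeat, and it shares its TMM factors with the tissue-restricted list. Those factors were lowest in CFO2 (0.754, with 84.5% of counts in other repeats) and highest in YM1 (1.34, with 62.4%). IAPEz-int in CPM ranked the mice in nearly the same order as the share of all other repeats. Each group comparison is therefore also given as a fit on repeat entries alone.

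In older compared with younger mice, no IAP entry passed the test. The test was edgeR's quasi-likelihood test on counts over 16774 genes and repeat entries with all 18 mice in one model, adjusted by Benjamini and Hochberg at 0.05, which called 0.0119% of all features in this comparison. With aging, 0 of 25 IAP entries were called, 0 had an unadjusted p under 0.05 (0.399% of all features did), and DESeq2 called 0. Log2 fold changes were above 0 for 23 of 25 entries, with a median of 0.05, beside 1093 of 1139 repeat entries with a median of 0.09 and a median of 0.00 over all features. These family values rested on single mice. Without CFO2, an older female, 5 of 25 entries were above 0 (median -0.06), beside 208 of 1138 repeat entries (median -0.05), and without the younger male YM1, 3 of 25 were (median -0.06), beside 300 of 1139 (median -0.03). Without the older male CMO1 9 of 25 were above 0 (median -0.02), whereas 1004 of 1139 repeat entries still were (median 0.06). Over all mice left out in turn the IAP median was between -0.06 and 0.17. IAPEz-int was 0.03 higher in older mice (standard error 0.22, edgeR adjusted p = 1.0), and IAPEY3-int, IAPLTR2_Mm and IAPLTR2a2_Mm had values of 0.08, 0.04 and 0.08. These 4 differences were smaller than their standard errors of 0.22 to 0.24.

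The small offset above 0 was not seen when repeats were scaled against repeats. Fitted on the 1139 repeat entries alone with their own library sizes, 7 of 25 IAP entries were above 0 with aging, with a median of -0.03, beside 587 of 1139 repeat entries with a median of 0.00. IAPEz-int was then at -0.06 (standard error 0.04, edgeR adjusted p = 0.954), and IAPEY2_LTR and IAPEY3_LTR had -0.10 each. edgeR called 0 of 25 entries in this fit too, as it called 0.0% of all repeat entries, and 0 had an unadjusted p under 0.05 (1.84% of all repeat entries did). Standard errors had a median of 0.06 over the IAP entries, against 0.23 in the fit with genes.

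Between older 3TC-treated and older mice, no IAP entry passed the test either. The same edgeR fit called 0 of 25 entries and 0.0% of all features, 0 IAP entries had an unadjusted p under 0.05 (1.16% of all features did), and DESeq2 called 0. Log2 fold changes were below 0 for 21 of 25 entries with a median of -0.05, beside 1015 of 1139 repeat entries with a median of -0.04. This tally too turned with single mice. Without CFO2, 24 of 25 entries were above 0 (median 0.07), beside 1113 of 1138 repeat entries (median 0.09), and without the 3TC-treated female DFO5, 24 of 25 were (median 0.07), beside 1072 of 1139 (median 0.05). Without CMO1 16 of 25 were above 0 (median 0.02), whereas 360 of 1139 repeat entries were (median -0.01). Without the 3TC-treated female DFO4 9 of 25 were (median -0.02), beside 566 of 1139 (median -0.00). Over all mice left out in turn the IAP median was between -0.19 and 0.07. IAPEz-int was at -0.03 (standard error 0.22, edgeR adjusted p = 1.0). Among repeat entries alone, the IAP median was -0.01 with 8 of 25 above 0, and IAPEz-int was at -0.00 (standard error 0.04). edgeR called 0 of 25 there, and 0 had an unadjusted p under 0.05, against 0.527% of all repeat entries. Of the tissue marker lists 0 genes were called in this comparison, with 7 of 7 thalamus markers above 0 (median 0.75), 8 of 8 choroid plexus markers below 0 (median -0.52) and 9 of 9 hippocampal markers below 0 (median -0.31). The summed thalamus level had a median of 77.8 CPM in older 3TC-treated mice, with DFO4 at 404 CPM, and of 73.3 CPM in older mice. The part of these markers in the IAP values was not tested.

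Between older 3TC-treated and younger mice, a comparison that shares its mice with the other 2, edgeR called 0 of 25 IAP entries and 0.0119% of all features. DESeq2 called 0, and 0 had an unadjusted p under 0.05 in the fit with genes (1.72% of all features did). Log2 fold changes were above 0 for 14 of 25 entries with a median of 0.01, beside 994 of 1139 repeat entries with a median of 0.05. Without the 3TC-treated male DMO5, 1 of 25 was above 0 (median -0.13), beside 82 of 1139 repeat entries (median -0.07), and without YM1, 3 of 25 were (median -0.12), beside 83 of 1139 (median -0.07). The IAP median was also below 0 without YM8, DMO2, YF8 or CMO6, with 7 to 12 of 25 above 0. In these fits 744 to 957 of 1139 repeat entries were above 0 (medians 0.01 to 0.04). Without the younger female YF3 25 of 25 were above 0 (median 0.14), as they were without DFO5 (median 0.11), and over all mice left out in turn the IAP median was between -0.13 and 0.14. Among repeat entries alone, 1 of 25 was above 0 and the median was -0.04. That entry was IAPEY5_I-int, which was also the only 1 of 25 with an unadjusted p under 0.05 there (1.58% of all repeat entries had one). The 7 thalamus markers were all above 0 here too (median 0.49), and the 8 choroid plexus and 9 hippocampal markers all below 0 (medians -0.43 and -0.31), with 0 called, and their part in the IAP values was not tested. The summed thalamus level had a median of 77.8 CPM in older 3TC-treated mice, with DFO4 at 404 CPM, and of 73.1 CPM in younger mice.

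**Figure D2:**
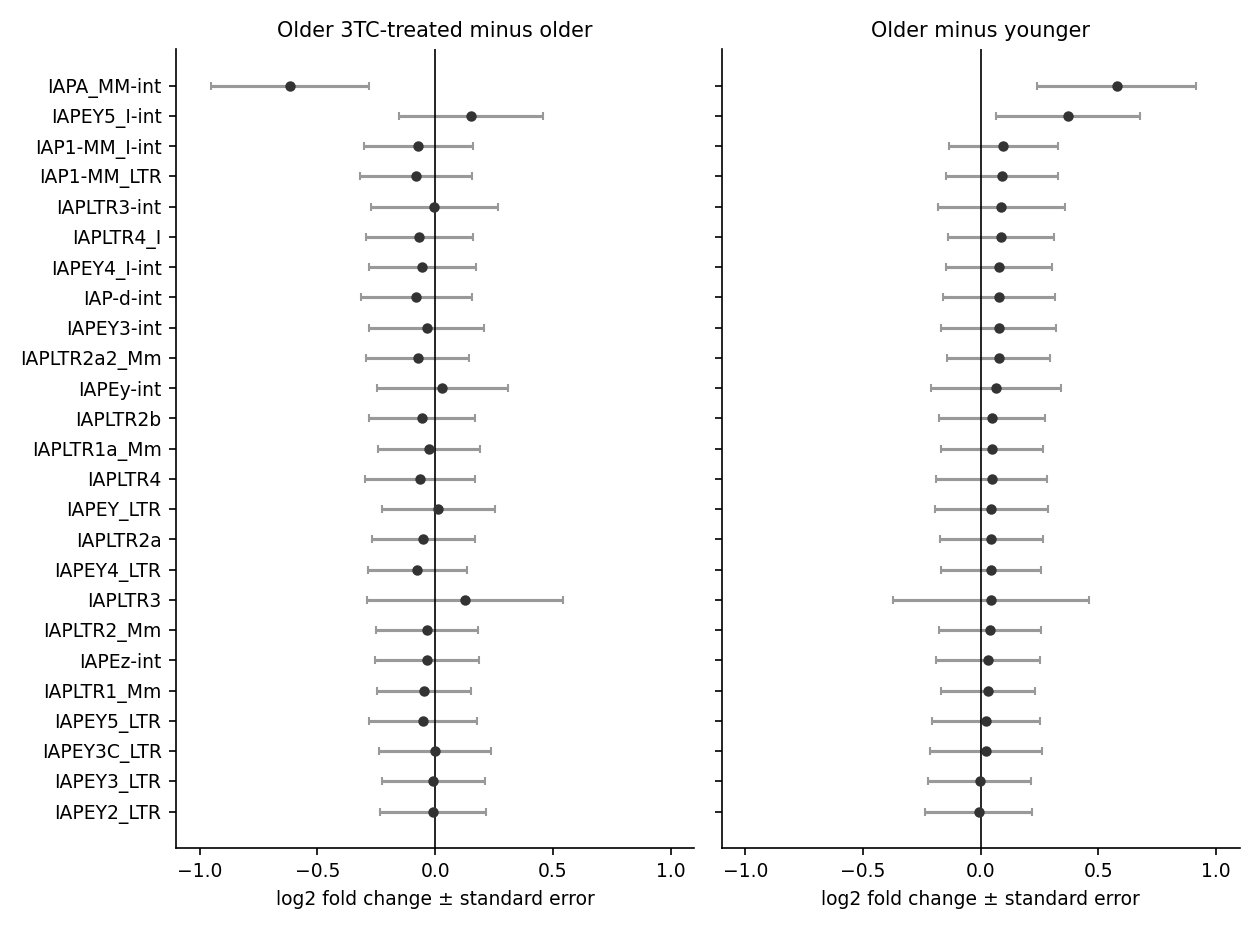
Log2 fold changes (points) with standard errors (bars) of the 25 IAP entries from edgeR's fit of genes and repeat entries, for older 3TC-treated minus older mice (left) and older minus younger mice (right), with entries ordered by the value on the right. IAPA_MM-int lies at -0.62 on the left and 0.58 on the right, and every other entry lies within 1 standard error of 0 except IAPEY5_I-int on the right.

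IAPA_MM-int, an internal part with few counts, had the largest log2 fold changes of the family in both comparisons, and both turned in sign without 1 mouse. The older male CMO1 had 162 CPM (5167 counts), and the other 17 mice had 26.1 to 53.4 CPM. By group, the values were 26.1 to 53.4 CPM (median 36.2) in older 3TC-treated mice, 26.3 to 162 CPM (median 37.8) in older mice and 28.3 to 47.9 CPM (median 39.0) in younger mice. In repeat CPM, CMO1 had 185 and the other 17 mice 44.0 to 59.9, so the separation was as clear on this scale as in CPM. With all mice, aging gave 0.58 and 3TC -0.62 on the log2 scale, each with a standard error of 0.34 and an edgeR adjusted p = 1.0 (0.102 and 0.0816 before adjustment). Without CMO1 it was -0.07 with aging and 0.03 with 3TC, each of the opposite sign.

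IAPA_MM-int was the only one of the 25 IAP entries whose highest mouse had at least 2 times the CPM of the second highest, with a ratio of 3.04. It ranked first by this ratio among 1139 repeat entries, of which 2 reached a ratio of 2, and 10th among all 16774 features, of which 61 (0.364%) did. CMO1 had the highest CPM of the 18 mice for 398 features, and among these the next largest ratio was 1.54. No other IAP entry was highest in CMO1 in CPM, and IAPEz-int had 7396 CPM there, inside the range of the other mice. In repeat CPM, CMO1 was the highest mouse for some other IAP entries, by at most 1.05 times the second highest.

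IAPEY5_I-int, the internal part of an IAPEY subfamily, was the other entry that set itself apart from the family. In repeat CPM, it had 93.7 to 192 (median 143) in older 3TC-treated mice, 84.0 to 175 (median 114) in older mice and 62.9 to 154 (median 90.5) in younger mice. The groups overlapped, and 1 younger female, YF3, had 154 while the other 5 younger mice had 62.9 to 93.4. Fitted with genes, its log2 difference was 0.37 with aging, 0.15 with 3TC and 0.52 in older 3TC-treated against younger mice, with a standard error of 0.31 and an edgeR adjusted p = 1.0 each time. Without YF3 these were 0.73 with aging and 0.89 in older 3TC-treated against younger mice, still with an edgeR adjusted p = 1.0. Without the younger male YM1 they were 0.20 and 0.35. Over all mice left out in turn, the values ran from 0.20 to 0.73 with aging, from 0.03 to 0.28 with 3TC and from 0.35 to 0.89 in older 3TC-treated against younger mice. Among repeat entries alone, the last difference was 0.59 (standard error 0.23, edgeR adjusted p = 0.97, 0.0173 before adjustment), which did not pass the correction.

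The matching LTR varied less over the mice. IAPEY5_LTR had 51.7 to 68.7 repeat CPM in older 3TC-treated mice (median 58.6), 50.0 to 65.9 in older mice (median 59.4) and 56.0 to 70.4 in younger mice (median 61.2). The ratio of IAPEY5_I-int to IAPEY5_LTR counts was 1.65 to 3.56 (median 2.43) in older 3TC-treated mice, 1.41 to 3.12 (median 1.78) in older mice and 1.09 to 2.31 (median 1.40) in younger mice. Its highest mouse was 3.26 times its lowest, whereas the ratios of internal part to LTR of 5 other subfamilies, IAPEY4, IAPEY3, IAPEY (IAPEy-int over IAPEY_LTR), IAPLTR4 and IAP1-MM, spanned 1.22 to 1.40 times. The ratio of IAPLTR3-int to IAPLTR3 spanned 2.11 times and is taken up with the sexes below.

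The repeat entry most like IAPEY5_I-int over the 18 mice, by Pearson r of log2 repeat CPM, was MT2B2, an LTR of the ERVL type, ranked first of 1138 entries. It was picked for this likeness, so that its r is a description with no test. Pearson r was 0.775 and Spearman rho 0.761, and r was 0.756 without CMO3 and CMO6. It was 0.646 within older 3TC-treated, 0.931 within older and 0.933 within younger mice. Within the 9 males r was 0.844 (rho 0.817), and within the 9 females r was 0.729 but rho 0.467. LARS2, the gene of mitochondrial leucyl-tRNA synthetase, was also described after its values were seen, with its counts scaled to repeat counts. Its level ran from 37.8 CPM in DFO8 to 2635 CPM in CMO3. Whether all of its counts came from its own mRNA was not tested. LARS2 had r = 0.643 and rho = 0.67 with IAPEY5_I-int, with r at 0.642 without CMO3 and DFO8. Its r was 0.849 (rho 0.733) within males and 0.443 (rho 0.35) within females (n = 9 each), a difference that was not tested. YF3, the younger mouse that was high in IAPEY5_I-int, was also the highest younger mouse in MT2B2, with 1280.3 repeat CPM against 631 to 1050.1 in the other 5.

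**Figure D3:**
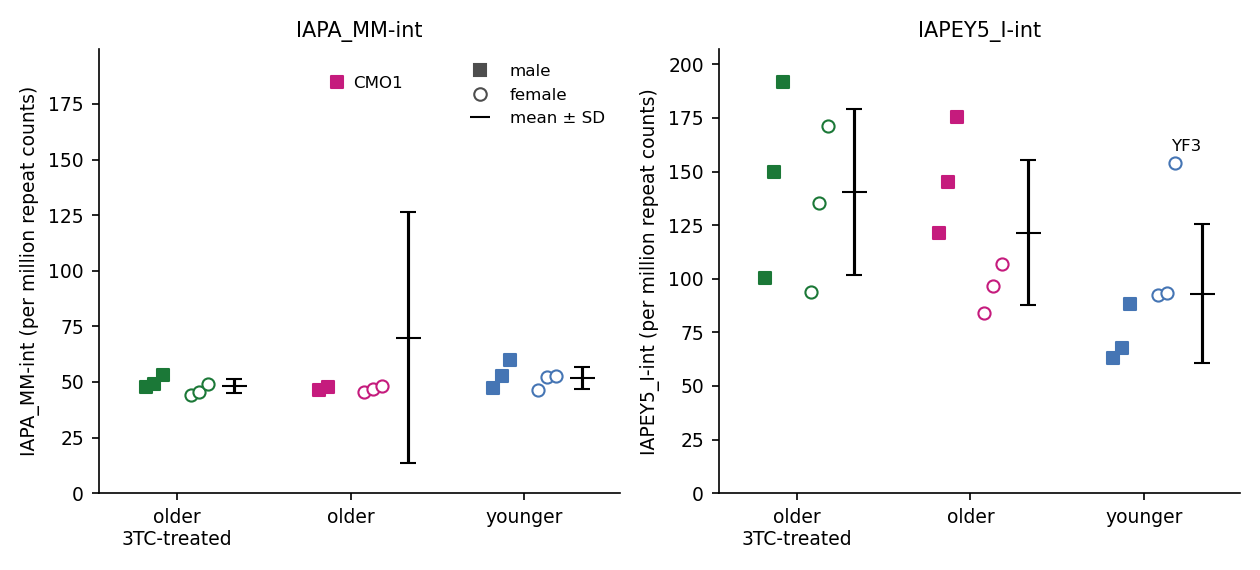
IAPA_MM-int (left) and IAPEY5_I-int (right) in each mouse by group, in repeat CPM, with squares for males, circles for females and black bars for the mean ± SD of 6 mice. On the left CMO1 stands at 185, and the other 17 mice at 44.0 to 59.9, and YF3 at 154 is the highest younger mouse on the right.

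Males and females differed in a subset of the IAP entries, which is the one difference in the family that passed the test. In the model with group and sex over all features, IAPLTR3 was higher in males, by 1.32 on the log2 scale (standard error 0.20, adjusted p = 8.98e-04 from edgeR), and it was the only 1 of 25 entries called, by edgeR and by DESeq2, with 3 of 25 at an unadjusted p under 0.05 (2.76% of all features were). Of all features, edgeR called 1.53%, with 0.0835% higher in males and 1.45% lower. IAPLTR3 had 48.5 to 116 CPM in the 9 males (median 79.8) and 17.5 to 48.0 CPM in the 9 females (median 31.0), so that the sexes did not overlap. It was the only 1 of 25 IAP entries without overlap in CPM, and 9 of 16774 features (0.0537%) were higher in every male than in every female.

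Scaled to repeat counts, the sexes separated in more entries and with little spread. IAPLTR3 had 95.2 to 115 repeat CPM in males (median 103) and 32.8 to 46.4 in females (median 40.0). IAPEy-int had 493.1 to 581 in males (median 532) and 305 to 386 in females (median 362), and IAPLTR3-int had 538 to 642 in males (median 582) and 336 to 444 in females (median 416). IAPEY_LTR had 173 to 207 in males (median 186) and 128 to 167 in females (median 147). These 4 of 25 entries were higher in every male than in every female, against 1.76% of the 1139 repeat entries.

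Among repeat entries alone, edgeR called 6 of 25 IAP entries, all higher in males, where it called 4.83% of all repeat entries, 2.72% higher and 2.11% lower in males. The same 6 had an unadjusted p under 0.05 (13.9% of all repeat entries had one). The log2 fold changes were 1.35 for IAPLTR3 (adjusted p = 1.29e-13), 0.59 for IAPEy-int (adjusted p = 1.38e-10) and 0.52 for IAPLTR3-int (adjusted p = 1.40e-08), each with a standard error of 0.04 to 0.06. IAPEY_LTR was higher by 0.34 (adjusted p = 5.47e-05), IAPEY3C_LTR by 0.31 (adjusted p = 8.31e-04) and IAPEY3-int by 0.17 (adjusted p = 0.0134), the last 3 of which were named after their values were seen. In the fit with genes, where standard errors were near 0.20, IAPEy-int had a log2 difference of 0.56 (edgeR adjusted p = 0.515) and IAPLTR3-int of 0.49 (adjusted p = 1.0), which did not pass the correction.

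The male-higher entries were not simply those with a Y in the name. Of the 10 Y-named entries, 4 were called among repeat entries alone, and the other 6, such as IAPEY2_LTR at 0.02, IAPEY4_LTR at -0.00 and IAPEY5_I-int at 0.04, were not. IAPLTR3 and its internal part IAPLTR3-int carry no Y in their names and were among the 3 largest differences. IAPEz-int had 7653 to 8504 repeat CPM in males and 7291 to 8460 in females, which is 0.04 on the log2 scale (standard error 0.03, edgeR adjusted p = 0.621). The lowest values in the fit with genes, -0.14 for IAPEY5_LTR, -0.11 for IAP1-MM_LTR and -0.10 for IAPLTR4, were smaller than their standard errors of 0.19 to 0.20. The ratio of IAPLTR3-int to IAPLTR3 counts was 5.23 to 5.95 in males (median 5.71) and 9.49 to 11.1 in females (median 10.1), without overlap.

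**Figure D4:**
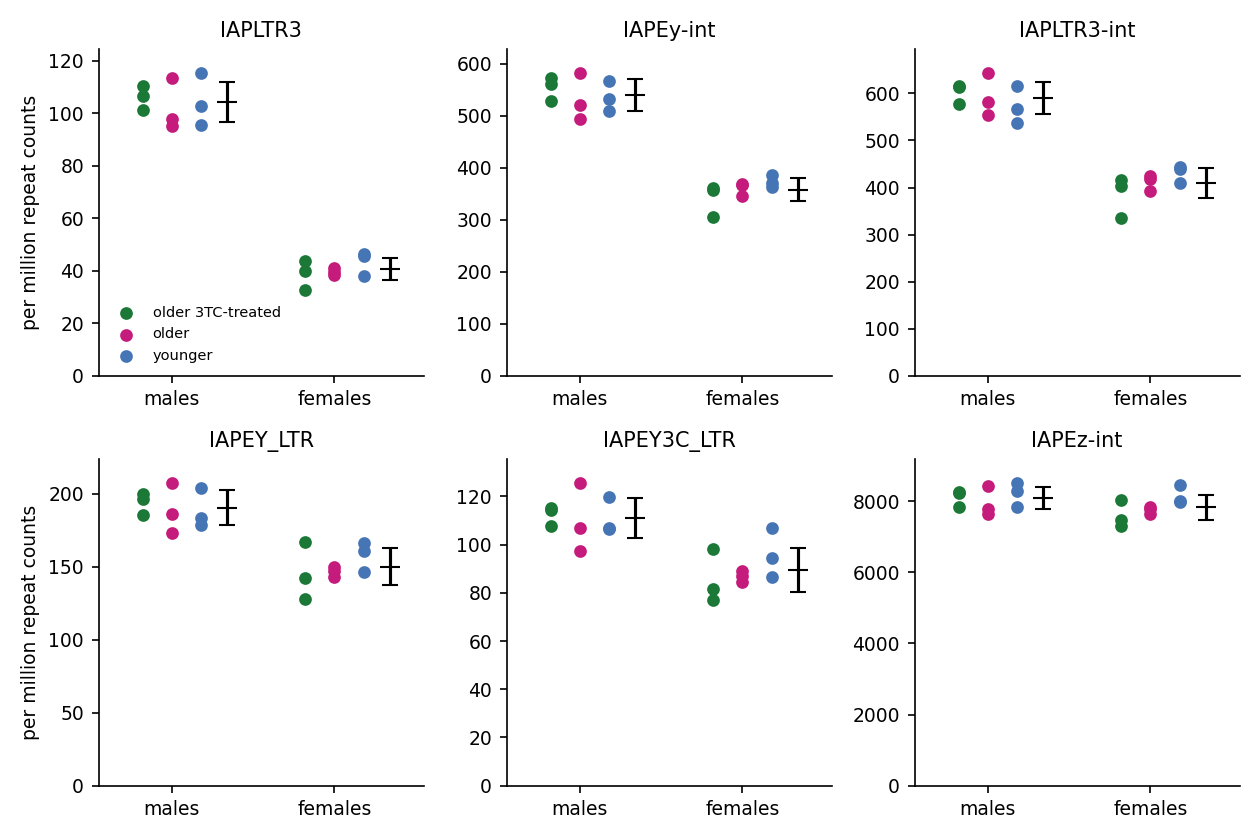
Level of 6 IAP entries in repeat CPM in 9 males (left) and 9 females (right) of each panel, coloured by group, with black bars for the mean ± SD of the 9 mice. IAPLTR3, IAPEy-int, IAPLTR3-int and IAPEY_LTR show no overlap of the sexes, IAPEY3C_LTR overlaps in part, and IAPEz-int overlaps almost fully.

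Other repeats moved with sex in the same fits. MURVY-int, the internal part of the MuRVY retrovirus of the Y chromosome, was higher in males by a log2 fold change of 1.58 in the fit with genes (adjusted p = 1.61e-04 from edgeR), and C573_MM by 5.55 (adjusted p = 2.83e-13). Both were named after their values were seen. On the X chromosome, 545 of 560 genes tested had values below 0 (lower in males), with a median log2 fold change of -0.42, and edgeR called 240 lower, whereas 15018 genes of other chromosomes had a median of 0.00. When all genes were ranked by mean CPM and split into 4 equal bins, the X-linked median was -0.86 in the lowest bin (205 genes) and -0.11 in the highest (113 genes). Of 5 red blood cell genes only ALAS2, which is X-linked, was in the table, at -0.68 (adjusted p = 0.00314). Choroid plexus markers were above 0 in males for 8 of 8 genes (median 0.37, 0 called), with summed levels of 29.2 to 648 CPM in males (median 257) and 33.9 to 624 CPM in females (median 45.3). The part of these differences in the IAP values was not tested.

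The differences with age and with 3TC were also compared between the sexes as interaction terms. For both terms edgeR called 0 of 25 IAP entries, 0.0% of all features and, fitted alone, 0.0% of repeat entries. At an unadjusted p under 0.05 stood 1 of 25 IAP entries for aging by sex, in both fits (0.191% of all features, 3.86% of repeat entries alone), and 0 of 25 for 3TC by sex (7.7% and 5.88%). For aging by sex, 25 of 25 entries were above 0 with a median of 0.18, beside 822 of 1139 repeat entries with a median of 0.05. A value above 0 means that older minus younger was more positive, or less negative, in males than in females. Among repeat entries alone, 25 of 25 were again above 0, with a median of 0.14, beside 586 of 1139 with a median of 0.00. IAPEz-int had 7653 to 8433 repeat CPM in older and 7834 to 8504 in younger males. In females it had 7636 to 7838 in older and 7968 to 8460 in younger mice. These tallies rest on 3 mice per group and sex and on entries that share reads, and were not refitted without single mice. Among older males, IAP entries took 1.65% of repeat counts in CMO1, 1.46% in CMO6 and 1.52% in CMO3. IAPEY5_I-int had the largest term, 1.31 (standard error 0.54, edgeR adjusted p = 1.0), and 1.28 among repeat entries alone (standard error 0.35, adjusted p = 0.756, 0.00206 before adjustment), which did not pass the correction. In repeat CPM, it had 121 to 175 in older males and 62.9 to 88.5 in younger males, and 84.0 to 107 in older females and 92.6 to 154 in younger females. In a comparison chosen after these values were seen, with 3 mice in each, older males did not overlap younger males in this entry. It was the only 1 of 25 IAP entries higher in this way, a smaller share than the 5.53% of all repeat entries. In males 0 of 25 IAP entries were lower without overlap, beside 7.02% of all repeat entries. Between older and younger females, 0 of 25 were higher without overlap (3.42% of all repeat entries) and 3 of 25 were lower (2.11%).

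For 3TC by sex, IAP entries had a median of 0.67 in the fit with genes, beside 0.69 over all 1139 repeat entries, and IAPEz-int had 0.69 (standard error 0.43, edgeR adjusted p = 0.447). IAPEz-int had 6175 to 8963 CPM in 3TC-treated males and 4324 to 7396 CPM in older males, and 3881 to 5897 CPM in 3TC-treated females and 5141 to 8842 CPM in older females. Among repeat entries alone the IAP median of this term was 0.00, with 14 of 25 above 0, and IAPEz-int had 0.01 (standard error 0.07).

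**Figure D5:**
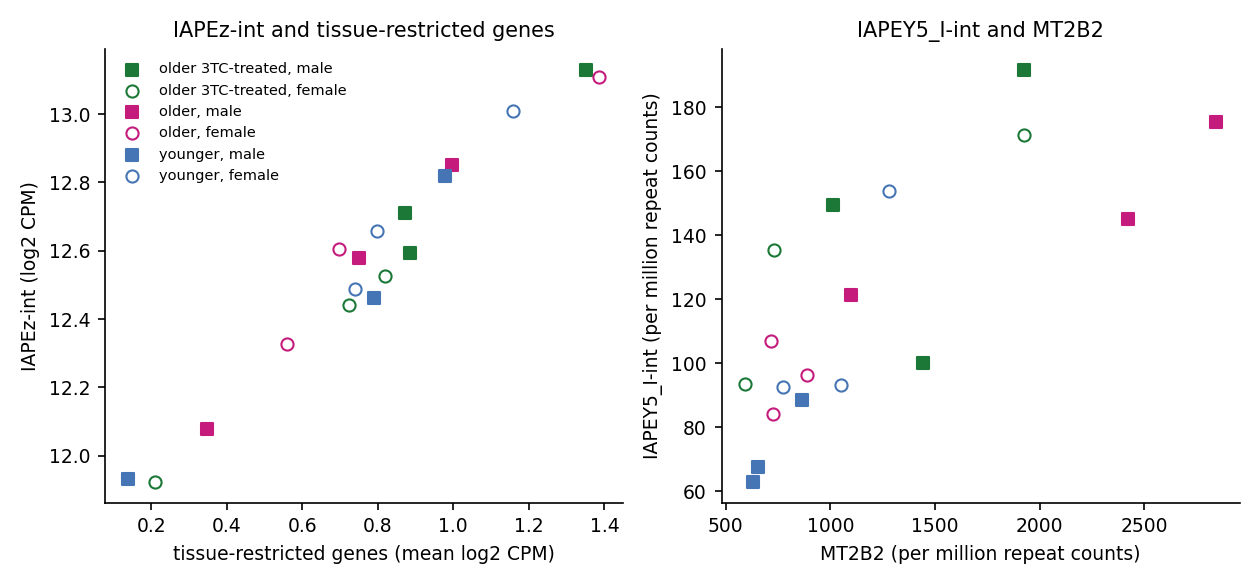
Left, IAPEz-int in log2 CPM against the mean log2 CPM of 25 tissue-restricted genes, and right, IAPEY5_I-int against MT2B2, both in repeat CPM, with 1 point per mouse, colours for groups, squares for males and circles for females. The left relation has a Pearson r of 0.981 and the right one 0.775 over 18 mice, the latter computed on log2 values of the levels shown.

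Genes that silence IAPs or act on retroelement products were given alongside. Of 30 listed genes of the silencing machinery, 28 were in the table, among them TRIM28, SETDB1, the DNA methyltransferases and HELLS, a chromatin remodeller needed for DNA methylation. edgeR called 0 of these 28 with aging (median log2 fold change 0.00, 14 above 0) and 0 with 3TC (median 0.02, 20 above 0). Of all 16774 features, it called 0.0119% with aging (median 0.00, 8350 above 0) and 0.0% with 3TC (median 0.00, 8474 above 0). HELLS had the smallest p with aging, with 3.20 to 4.97 CPM in older and 2.64 to 4.04 CPM in younger mice and a log2 difference of 0.35 (standard error 0.15, edgeR adjusted p = 1.0), followed by DAXX, a histone chaperone, at -0.13. With 3TC, DNMT1 and DNMT3A, the maintenance and a de novo DNA methyltransferase, had the smallest p values, at 0.13 and 0.15 (edgeR adjusted p = 1.0 each).

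Of 20 genes that restrict retroelements or sense their nucleic acids, 19 were in the table. edgeR called 0 of them with aging (median 0.01) and 0 with 3TC (median -0.03), beside 0.0119% and 0.0% of all features. TLR3, a receptor of double-stranded RNA, was at 0.19 with aging (standard error 0.08, edgeR adjusted p = 1.0) and -0.08 with 3TC, and BST2, a tether of budding virus particles, was at 0.28 with aging. Between the sexes, SUV39H1, a histone H3 lysine 9 methyltransferase, was lower in males with a log2 difference of -0.46 (adjusted p = 0.00129 from edgeR), as was TLR7, a receptor of single-stranded RNA, at -0.86 (adjusted p = 0.00339). Both are X-linked, and edgeR called 240 of the 560 X-linked genes lower in males, with a median log2 fold change of -0.42 over the 560. These 2 calls are thus not particular to the lists. No other gene of either list was called between the sexes.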

How the data were processed

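The members, marker and pathway lists were chosen with earlier results of these data known. The deposited table, made by the authors, gives raw counts of 15644 genes and 1146 repeat entries for 18 mice. STAR, DESeq2 and mm10 are named, without versions, in the processing notes of the submitters. The study's methods describe trimming with fastp, STAR alignment that kept multi-mapping reads and TEtranscripts counting against a repeat annotation, with RepEnrich2 as a second program, and which of them made the repeat counts is not given in the sources used here. The methods describe total RNA depleted of ribosomal RNA and the labels polyA RNA, which was not settled here. How reads were shared between repeats can change the entries. 2 repeat names shared with genes were renamed, and 0 columns were left unused. Sequences of IAP entries were not used here.

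Counts were tested with edgeR 4.0.16 (R 4.3.3) by TMM factors and quasi-likelihood over 16774 features with a mean count above 10, in one model of 18 mice with group, with group and sex, or with their interaction. limma 3.58.1 and DESeq2 1.42.0 served edgeR and an alternative. CPM used a prior count of 2 on the log2 scale, and fits were checked on simulated counts. Every pair of mice differed by more than counting error (chi-square of at least 5.37 per degree of freedom). X and Y genes were placed by symbol with GENCODE vM21. Entries described in full were the 4 with the most counts, those with the smallest p in each direction of each contrast (3 in the sex contrast), those called, and those with a highest mouse at least 2 times the second. Of the pathway lists, the 2 genes with the smallest p with aging and with 3TC were named, except 1 that is not reported here. Alternatives were other normalizations, filters, features and terms, 2 groups only, and leaving out each mouse. Relations used 1e+05 permutations. Tables were read with Python 3.11.15, scipy 1.17.1 and matplotlib 3.10.9.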

Additional observations from a re-analysis of the deposited data

Results flagged for a closer look

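Of 75 sets of 6 mice examined (25 entries in 3 groups), Dixon's test at 95% marked 2, in which 1 mouse lay far from the others, and chance marks about 1 in 20. IAPA_MM-int had 162 CPM in the older male CMO1, and the nearest older mouse had 51.7 CPM. IAPEY5_I-int had 159 CPM in the younger female YF3, and the nearest younger mouse had 75.2 CPM.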

How the results depend on the processing

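The counts of IAP entries called were 0 with aging, with 3TC and in older 3TC-treated against younger mice under every alternative run, and without each mouse in turn. For sex, 1 entry was called in the fit with genes and without each mouse, and IAPLTR3 then had log2 fold changes of 1.22 to 1.42 (adjusted p = 3.53e-04 to 0.00305). 3 entries were called with total counts only as library sizes, 5 with the tissue-restricted list as a term and 6 with repeat entries alone. IAPEy-int passed in these 3 fits at 0.59, 0.55 and 0.59, and IAPLTR3-int at 0.52, 0.48 and 0.52. The relation of IAPEz-int to tissue-restricted genes was 0.992 within older 3TC-treated mice. No called value changed sign. Among values near 0 that were not called, the sign turned with aging for IAPEz-int (-0.032 with total counts, -0.058 with repeat entries alone), IAPLTR2_Mm (-0.022, -0.046), IAPLTR2a2_Mm (-0.012 with repeat entries alone) and IAPEY3-int (-0.010 with repeat entries alone). In older 3TC-treated against younger mice it turned for IAPEY3-int (-0.0073 with total counts, -0.029 with repeat entries alone, -0.036 with the list as a term), IAPLTR2_Mm (-0.0022 with DESeq2 and RLE factors, -0.033 with total counts, -0.048 with repeat entries alone, -0.043 with the list), IAPLTR2a2_Mm (-0.0060 with DESeq2 and RLE factors, -0.026 with total counts, -0.0034 with factors from genes, -0.034 with repeat entries alone, -0.026 with the list) and IAPEz-int (0.0014 with a mean count above 100). The cause was not tested.

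Replicate labels did not pair the mice (7 same-label pairs, r of deviations -0.549 to 0.337). In a fit with labels as a block, a mouse that shares its label with no other adds nothing to the contrasts. Aging was then compared directly only between YF2 and CFO2, YF3 and CFO3, and YM1 and CMO1, and 3TC only between DMO1 and CMO1. With sex and label number as a replicate block, 0 entries were called in the 3 group comparisons, with medians of 0.31 (aging), -0.20 (3TC) and 0.10 (older 3TC-treated against younger), and the sign turned for IAPEY2_LTR with aging (0.27) and, in older 3TC-treated against younger mice, for IAPEY4_LTR (0.057) and IAPEz-int (0.0998).

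Leaving out each mouse in turn gave, with aging, -0.066 to 0.73 for IAPA_MM-int, -0.13 to 0.11 for IAPEY2_LTR, -0.044 to 0.19 for IAPEY3-int, -0.087 to 0.13 for IAPEz-int, -0.075 to 0.15 for IAPLTR2_Mm and -0.056 to 0.20 for IAPLTR2a2_Mm. With 3TC it gave -0.77 to 0.026 for IAPA_MM-int, -0.20 to 0.093 for IAPEY3-int, -0.17 to 0.085 for IAPEz-int, -0.17 to 0.081 for IAPLTR2_Mm and -0.19 to 0.058 for IAPLTR2a2_Mm. In older 3TC-treated against younger mice it gave -0.16 to 0.040 for IAPA_MM-int, -0.13 to 0.16 for IAPEY3-int, -0.18 to 0.082 for IAPEY4_LTR, -0.14 to 0.096 for IAPEz-int, -0.13 to 0.12 for IAPLTR2_Mm and -0.13 to 0.13 for IAPLTR2a2_Mm, and for sex -0.20 to 7.9e-05 for IAPLTR4. Depth limited no entry, the lowest count of any entry in any mouse being 647.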
